A study of Mus musculus with 11 samples.

Results

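The myostatin, activin and follistatin axis was followed through 10 genes in fasted mouse muscle. They are the ligand genes Mstn, Gdf11, Inhba and Inhbb, the receptor genes Acvr2a and Acvr2b, the binding protein genes Fst, Fstl1 and Fstl3, and Mss51, a muscle gene reported to respond to myostatin. Members were taken by symbol from a table of 55385 genes, and all 10 were found and passed the low-count filter that left 15416 genes for testing. Gene expression was measured by RNA sequencing of gastrocnemius, a mixed-fibre calf muscle, 36 h into a fast, a state in which muscle wastes. The ZEB1 line had a control group homozygous for floxed alleles (ZEB1 flx/flx, 2 libraries, numbered 2 and 3) and a knockout group with the same alleles and HSACre (ZEB1 flx/flx; HSACre, 3 libraries). The ZEB2 line had the matching groups ZEB2 flx/flx (3 libraries) and ZEB2 flx/flx; HSACre (3 libraries). HSACre is a recombinase driven by the human skeletal actin promoter, and is active in muscle fibres. No group carried HSACre without floxed alleles, and no group was fed, so loss of a ZEB gene cannot be told apart from presence of Cre, and nothing here compares fasted with fed muscle. Each library held RNA pooled from 2 mice, so the spread between libraries is a spread between pools.

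Myostatin (Mstn) is a secreted factor of the TGF-beta family made by muscle fibres, and it is known for holding back muscle growth. Myostatin, its close relative GDF11 (Gdf11) and the activins, dimers of the subunits encoded by Inhba and Inhbb, bind the type II receptors ACVR2A and ACVR2B, which signal through type I receptors and the transcription factors SMAD2 and SMAD3. Follistatin (Fst) and FSTL3 bind these ligands and keep them from the receptors. FSTL1 shares the follistatin fold but is a much weaker binder of activin, and is secreted by mesenchymal and muscle cells. ZEB1 and ZEB2 are zinc-finger repressors that bind E-boxes and can interact with SMAD proteins.

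Levels are given as CPM, the count per library total after TMM scaling, which evens out differences in RNA make-up between libraries. Library totals ran from 27.3 M to 46.3 M counts. Each floxed gene was lower in every knockout of its own line than in any control of that line. ZEB1 controls had 41.2 and 51.1 CPM of Zeb1 and ZEB1 knockouts 28.4, 28.6 and 30.4 CPM. ZEB2 controls had 24.1, 23.1 and 25.8 CPM of Zeb2 and ZEB2 knockouts 18.3, 14.4 and 17.7 CPM. Neither passed in edgeR (adjusted p = 0.800 and 0.0775). In DESeq2 Zeb2 passed in the ZEB2 line (adjusted p = 0.0095) and Zeb1 did not in the ZEB1 line (0.114). The ZEB2 groups also differed in Zeb1, with ZEB2 knockouts at 67.2, 60.2 and 75.99 CPM, all above the controls at 47.7, 52.1 and 43.7 CPM (log2 fold change 0.50, SE 0.14, adjusted p = 0.0787 in edgeR and 0.0131 in DESeq2). Zeb2 overlapped between the ZEB1 groups (log2 fold change 0.069, SE 0.14). All 6 fast-fibre marker genes were present, with summed levels from 48474 to 72430 CPM over the 11 libraries. Y-linked genes summed to 0 CPM in 4 libraries (ZEB1 control 2, ZEB1 knockouts 1 and 2, ZEB2 control 3) and to between 121 and 343 CPM in the other 7, which include all ZEB2 knockouts.

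Per length of exon, Mstn had the highest mean of the members over the 11 libraries. CPM divided by the exon length in kb averaged 40.2 ± 29.8 for Mstn (SD over the 11 libraries, as for all values of this kind). It was 14.1 ± 8.13 for Mss51, and their ranges over libraries overlapped, with Mss51 above Mstn in ZEB1 control 2 and ZEB2 control 3. Fstl1, at 8.72 ± 3.62, and Acvr2a, at 8.08 ± 1.96, could not be ordered, since their ranges overlapped. Acvr2b followed at 1.77 ± 0.480, with its highest library (2.44) below the lowest of Acvr2a (6.35). Fst (1.53 ± 0.415) overlapped Acvr2b, and Gdf11 (0.657 ± 0.402) overlapped Fst. Fstl3, at 0.523 ± 0.0761, and Inhbb, at 0.450 ± 0.110, overlapped each other and Gdf11. Inhba was lowest at 0.103 ± 0.0623, and its highest library (0.215) lay below the lowest of Inhbb (0.298). Inhba rested on 6 to 51 counts per library, against 1266 to 10758 counts for Mstn.

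**Figure D1:**
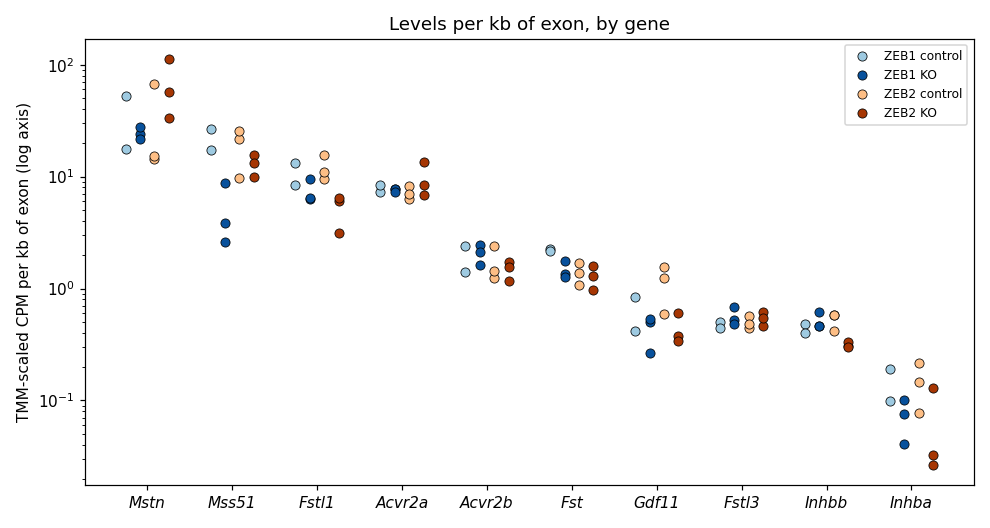
Level of each member in each of the 11 libraries, as TMM-scaled CPM per kb of exon on a log axis, with genes ordered by their mean and points coloured by group. Mstn tops the order at a mean of 40.2 and Inhba ends it at 0.103, and the points of most neighbours overlap.

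The members also differed in how far they varied between libraries. The highest library exceeded the lowest by 10.1 times for Mss51, 8.13 times for Inhba, 7.74 times for Mstn, 5.90 times for Gdf11 and 5.05 times for Fstl1. The other members ranged from 1.56 times for Fstl3 to 2.32 times for Fst. As a coefficient of variation over the 11 libraries, Mstn reached 74.2%, above 98.5% of the 12378 genes with a mean of at least 1 CPM, whose median was 20.4%. Fstl3, at 14.5%, was the steadiest of the 10.

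The sequence just before the start of 3 members is shown. The windows of Mstn and Fstl3 hold general E-boxes. That of Mss51 lacks them, as do those of Inhba, Inhbb, Acvr2a, Acvr2b and Fstl1. The windows are the 250 bases before the RefSeq start (GRCm38.p6, written along the strand of the gene), and capitals mark each CANNTG, the general E-box. Mstn is at chr1:53061390-53061639 (plus strand), Fstl3 at chr10:79777024-79777273 (plus strand) and Mss51 at chr14:20496902-20497151 (minus strand).
Mstn: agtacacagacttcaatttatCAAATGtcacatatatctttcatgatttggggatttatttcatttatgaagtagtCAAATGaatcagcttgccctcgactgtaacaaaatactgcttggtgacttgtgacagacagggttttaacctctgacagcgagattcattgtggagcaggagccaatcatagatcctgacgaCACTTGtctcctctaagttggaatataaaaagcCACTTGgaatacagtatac
Fstl3: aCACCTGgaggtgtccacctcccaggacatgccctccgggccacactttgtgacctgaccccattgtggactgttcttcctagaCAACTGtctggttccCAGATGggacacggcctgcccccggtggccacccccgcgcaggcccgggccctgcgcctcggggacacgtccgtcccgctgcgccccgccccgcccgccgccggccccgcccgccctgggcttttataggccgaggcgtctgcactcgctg
Mss51: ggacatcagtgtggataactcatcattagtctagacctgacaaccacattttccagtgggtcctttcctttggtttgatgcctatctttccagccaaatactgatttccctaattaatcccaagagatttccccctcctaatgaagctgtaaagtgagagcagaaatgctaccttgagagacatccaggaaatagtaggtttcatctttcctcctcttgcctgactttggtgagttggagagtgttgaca
Mstn held 4 E-boxes, starting 229, 174, 52 and 19 bases before the start. Fstl3 held 3, of which the one starting 249 bases before the start reads CACCTG, the form that ZEB proteins favour. Mss51 held none. Of the 9 members with a window in the table (Fst had none), 3 held CANNTG, the remaining one being Gdf11, and 1 held CACCTG or its reverse complement CAGGTG. Every CACCTG is also a CANNTG, and both strands were searched. Among 32817 windows of the same length, 66.2% held CANNTG and 17.2% held CACCTG on either strand. The word TGTTTAC, bound by FoxO factors, was in none of the 9 windows, against 3.16% of all windows. A match of letters is a description of the window and shows no binding.

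Of the ligands, Mstn (GRCm38 chromosome 1, 53061640 to 53068079, plus strand) varied widely within groups, and its groups overlapped in both lines. ZEB1 controls measured 47.6 and 141 CPM and ZEB1 knockouts 64.4, 58.2 and 75.4 CPM. The 3 knockouts were close to each other and lay between the 2 controls. ZEB2 controls measured 39.2, 180.2 and 41.2 CPM and ZEB2 knockouts 90.9, 155 and 303 CPM. ZEB2 control 2 lay above 2 of the 3 knockouts, so those groups overlapped too. The mean was 94.5 ± 66.3 CPM (SD, n = 2) against 66.0 ± 8.69 (n = 3) in the ZEB1 line, a log2 fold change of -0.52 (standard error, SE, 0.72). For the ZEB2 line it was 86.9 ± 80.9 CPM (n = 3) against 183 ± 109 (n = 3), a log2 fold change of 1.08 (SE 0.65). Neither passed (edgeR adjusted p = 0.9998 and 0.266). A single library decided the sign in the ZEB1 line, where the log2 fold change was 0.46 without ZEB1 control 3 and -1.12 without ZEB1 control 2. The ZEB2 value ran from 0.52 without ZEB2 knockout 3 to 2.19 without ZEB2 control 2. Mstn was at 41.2 to 64.4 CPM in the 4 libraries without Y-linked counts. It was at 39.2 to 303 CPM (median 141) in the other 7, which include all ZEB2 knockouts. With the Y-linked level as a covariate its log2 fold change was -0.11 in the ZEB1 line and 0.77 in the ZEB2 line.

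Gdf11 (chromosome 10, 128882295 to 128891718, minus strand) was lower in ZEB2 knockouts by DESeq2 and not by edgeR. ZEB2 controls measured 2.38, 4.99 and 6.33 CPM and ZEB2 knockouts 1.52, 2.44 and 1.38 CPM. The groups just overlapped, since ZEB2 knockout 2 lay above ZEB2 control 1. The means were 4.57 ± 2.01 and 1.78 ± 0.575 CPM (SD, n = 3 each), a log2 fold change of -1.35 (SE 0.42). It did not pass in edgeR (adjusted p = 0.0848) and passed in DESeq2 (adjusted p = 0.0222). In an edgeR fit of the ZEB2 groups alone Gdf11 had an adjusted p of 0.0492, in a fit that called 2077 of 14673 genes. The DESeq2 call was lost without ZEB2 knockout 1 (adjusted p = 0.0677), without ZEB2 knockout 3 (0.142) and without ZEB2 control 2 (0.0623), and without ZEB2 control 3 the tool gave no adjusted p. Gdf11 in the ZEB1 line measured 3.39 and 1.68 CPM without Cre and 1.07, 2.03 and 2.15 CPM with it. Those groups overlapped (log2 fold change -0.53, SE 0.47, edgeR adjusted p = 0.9998), and the sign rested on ZEB1 control 2, without which the value was 0.044.

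The activin subunit genes were at low levels. Inhba (chromosome 13, 16011851 to 16031621, plus strand) measured 1.22 and 0.630 CPM in ZEB1 controls, with ZEB1 knockouts at 0.260, 0.483 and 0.639 CPM. Its ZEB2 controls were at 0.495, 0.934 and 1.37 CPM and its ZEB2 knockouts at 0.209, 0.828 and 0.169 CPM. Knockout and control libraries overlapped in both lines. The log2 fold changes were -0.99 (SE 0.68) and -1.18 (SE 0.61), and neither passed (edgeR adjusted p = 0.9998 and 0.197). Inhbb (chromosome 1, 119415465 to 119422248, minus strand), which encodes the subunit of activin B, measured 1.79, 2.45 and 2.48 CPM in ZEB2 controls, with ZEB2 knockouts at 1.31, 1.43 and 1.27 CPM. All 3 knockouts lay below all 3 controls, and were also the 3 lowest of the 11 libraries. The log2 fold change was -0.74 (SE 0.23), which did not pass in edgeR (adjusted p = 0.0849) and passed in DESeq2 (0.0435). That call was lost in most omissions of a library, with DESeq2 adjusted p from 0.0389 without ZEB2 control 1 to 0.177 without ZEB2 knockout 3. Inhbb in ZEB1 controls was at 2.04 and 1.71 CPM, and ZEB1 knockouts overlapped them at 2.63, 1.96 and 1.97 CPM (log2 fold change 0.22, SE 0.26).

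Among the binding proteins, Fstl1 (chromosome 16, 37776873 to 37836514, plus strand) was lower in every ZEB2 knockout than in any ZEB2 control. ZEB2 controls measured 46.9, 53.9 and 77.1 CPM and ZEB2 knockouts 29.8, 31.96 and 15.3 CPM. ZEB2 knockout 3 was the lowest of the 11 libraries and ZEB2 control 3 the highest. The means were 59.3 ± 15.8 and 25.7 ± 9.08 CPM (SD, n = 3 each), a log2 fold change of -1.21 (SE 0.31). The value did not pass in edgeR (adjusted p = 0.0775), and it passed in DESeq2 (0.00726). Zeb2 and Tgfb2, among others, tied with Fstl1 at that edgeR adjusted p, the smallest of any gene in this comparison. In the edgeR fit of the ZEB2 groups alone the adjusted p of Fstl1 was 0.0416, where 2077 of 14673 genes passed. Without ZEB2 knockout 3 the DESeq2 adjusted p was 0.0666, and without ZEB2 control 3 none was given. ZEB1 controls had 65.4 and 41.7 CPM of Fstl1, and ZEB1 knockouts 30.9, 47.1 and 31.3 CPM. ZEB1 knockout 2 lay above ZEB1 control 3 (log2 fold change -0.56, SE 0.34, edgeR adjusted p = 0.9998).

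Fst (chromosome 13, 114452290 to 114458951, minus strand), the gene of follistatin, was highest in the ZEB1 controls. They measured 10.4 and 9.90 CPM, with ZEB1 knockouts at 6.20, 8.11 and 5.83 CPM. Both ZEB1 controls lay above the other 9 libraries, ZEB2 controls included. The log2 fold change was -0.60 (SE 0.25), with an unadjusted p of 0.0334 and an adjusted p of 0.9998 (edgeR). ZEB2 controls, at 7.70, 4.90 and 6.30 CPM, overlapped ZEB2 knockouts, at 7.32, 4.49 and 5.97 CPM (log2 fold change -0.091, SE 0.22). Between the control groups, which carry no Cre, Fst was lower in the ZEB2 line by a log2 fold change of -0.69 (SE 0.25, edgeR unadjusted p = 0.0171, adjusted p = 0.9999). The ZEB1 comparison and the comparison of controls share the 2 ZEB1 control libraries.

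Fstl3 (chromosome 10, 79777272 to 79782630, plus strand), whose product binds activin and myostatin, was low and even. Over the 11 libraries it ran from 1.08 to 1.69 CPM, from 31 to 65 counts, and groups overlapped in both lines. The log2 fold change was 0.27 (SE 0.28) in the ZEB1 line and 0.12 (SE 0.25) in the ZEB2 line, where the sign turned with upper-quartile scaling (-0.011) and with library totals alone (-0.0045).

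The receptor genes differed little between groups. Acvr2a (chromosome 2, 48814109 to 48903269, plus strand) measured 40.99 and 47.8 CPM in ZEB1 controls, with ZEB1 knockouts at 44.5, 44.04 and 41.1 CPM. ZEB2 controls had 36.1, 47.2 and 39.4 CPM of Acvr2a and ZEB2 knockouts 38.7, 48.04 and 77.5 CPM. ZEB2 knockout 3 stood apart from the other 10 libraries, which lay between 36.1 and 48.0 CPM. The log2 fold change was -0.039 (SE 0.25) in the ZEB1 line and 0.42 (SE 0.22, edgeR adjusted p = 0.200) in the ZEB2 line, and the latter was 0.10 without ZEB2 knockout 3. Acvr2b (chromosome 9, 119402118 to 119434995, plus strand), the other type II receptor, measured 9.37 and 5.56 CPM in ZEB1 controls, with ZEB1 knockouts at 9.58, 8.24 and 6.39 CPM. Its ZEB2 controls measured 9.49, 4.86 and 5.68 CPM and its ZEB2 knockouts 6.78, 4.58 and 6.05 CPM. Control and knockout libraries were interleaved in both lines (log2 fold change 0.11, SE 0.32, and -0.20, SE 0.29).

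Mss51 (chromosome 14, 20482867 to 20496901, minus strand), which encodes a muscle protein tied to mitochondrial metabolism, gave the greatest difference of the 10. ZEB1 controls measured 48.3 and 31.4 CPM and ZEB1 knockouts 4.77, 16.2 and 7.05 CPM. All 3 ZEB1 knockouts lay below every other library of the study, the next being ZEB2 control 1 at 17.6 CPM. The means of 39.8 ± 11.9 CPM (SD, n = 2) and 9.33 ± 6.03 CPM (n = 3) gave a log2 fold change of -2.09 (SE 0.51), so that knockouts had 0.234 of the control level. The edgeR test gave an unadjusted p of 0.00197 and an adjusted p of 0.9998, and DESeq2 an adjusted p of 0.0204. The DESeq2 call was lost without ZEB1 control 2 (adjusted p = 0.604), ZEB1 control 3 (0.0998), ZEB1 knockout 1 (0.140) or ZEB1 knockout 3 (0.209), and without ZEB1 knockout 2 it was 3.13e-07. ZEB2 controls had 17.6, 39.6 and 47.1 CPM of Mss51, and ZEB2 knockouts 18.3, 28.8 and 24.4 CPM. Those groups overlapped (log2 fold change -0.55, SE 0.45, edgeR adjusted p = 0.411). The effect in the ZEB1 line minus that in the ZEB2 line was -1.55 (SE 0.68) and did not pass (edgeR adjusted p = 0.516).

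**Figure D2:**
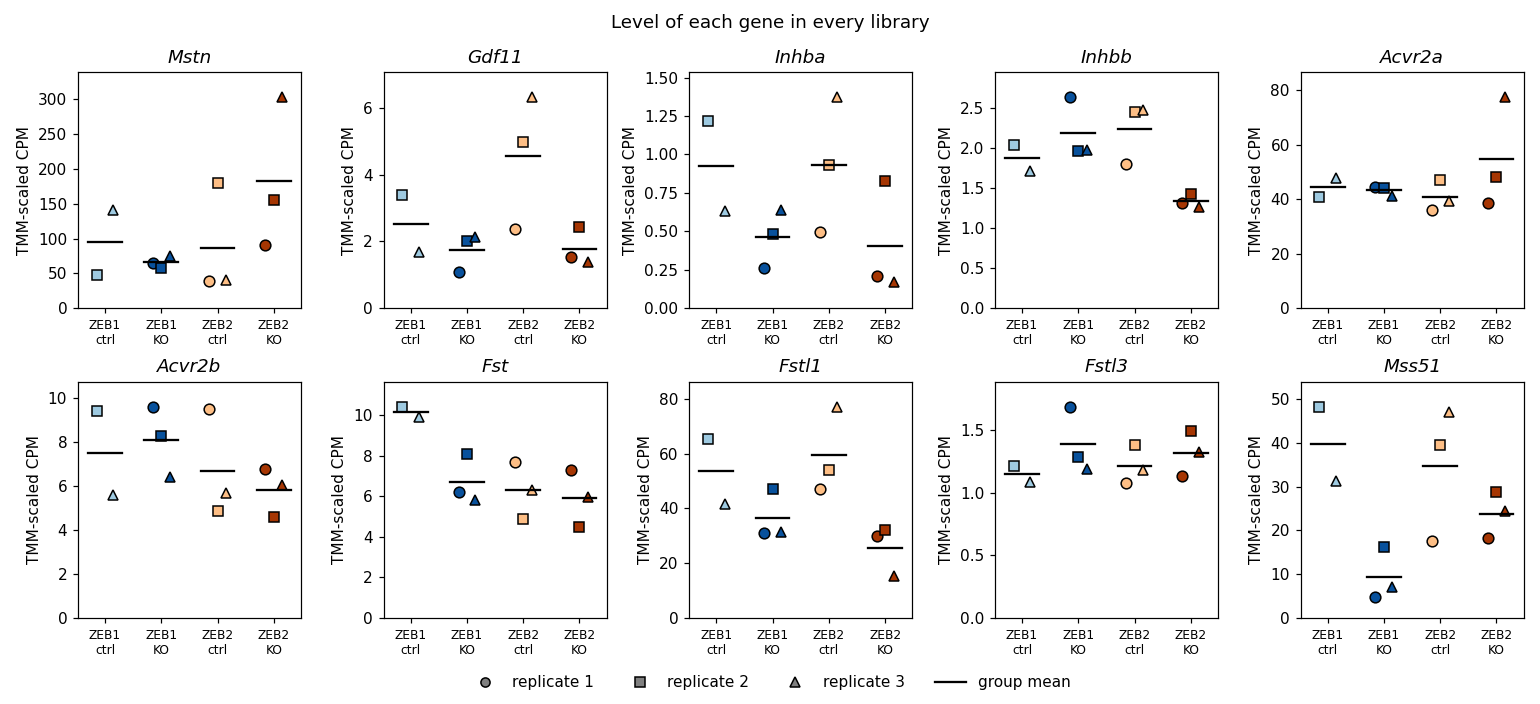
TMM-scaled CPM of each member by group, with 1 point per library and the group mean as a line. The marker shape shows the replicate number, which was not used to pair libraries in the main fit. The 3 ZEB1 knockouts are the lowest points for Mss51, from 4.77 to 16.2 CPM, and the ZEB2 knockouts lie below all ZEB2 controls for Fstl1 and Inhbb.

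Over all 10 members, 7 were lower in the knockouts of each line, and 2 in each line had every knockout below every control. Counts over so few genes say little beside the shares of all genes given with them. In the ZEB1 line Mstn, Gdf11 and Acvr2a, counted as lower, turned sign when a single control library was left out. In the ZEB2 line Fst and Acvr2b did. In the ZEB1 line edgeR called 0 of 10 members, and 0% of all genes tested. There 7 members were lower, against 48.7% of all genes, and 3 higher, and the median log2 fold change was -0.53 against 0.0070 over all genes tested. Without adjustment 499 of the 15416 genes had an edgeR p under 0.05, and among the members 2 did (Fst and Mss51, both lower, against 1.60% of all genes in that direction and 1.64% in the other). The same 2 had every knockout below every control, as did 6.69% of all genes, and 0 had every knockout above, as did 7.19%. DESeq2 called 1 member, Mss51, against 0.136% of genes in both directions, 0.0260% lower and 0.110% higher, and limma-voom called 0 members and 0.00649% of genes.

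In the ZEB2 line 0 of 10 members were called by edgeR, again with 0% of all genes. Of the members 7 were lower, against 53.4% of all genes, and 3 higher, with a median log2 fold change of -0.38 against -0.047 over all genes. Here 5113 genes had an unadjusted edgeR p under 0.05, and 3 members did (Inhbb, Fstl1 and Gdf11, all lower, against 17.3% of all genes in that direction and 15.9% in the other). For 2 members every knockout lay below every control, as it did for 22.1% of genes, so this count is near the background, and for 0 members every knockout lay above, as it did for 21.3%. DESeq2 called the same 3 members lower, against 8.91% of genes lower, 10.5% higher and 19.4% in both directions, and limma-voom called 0 members and 0% of genes.

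**Figure D3:**
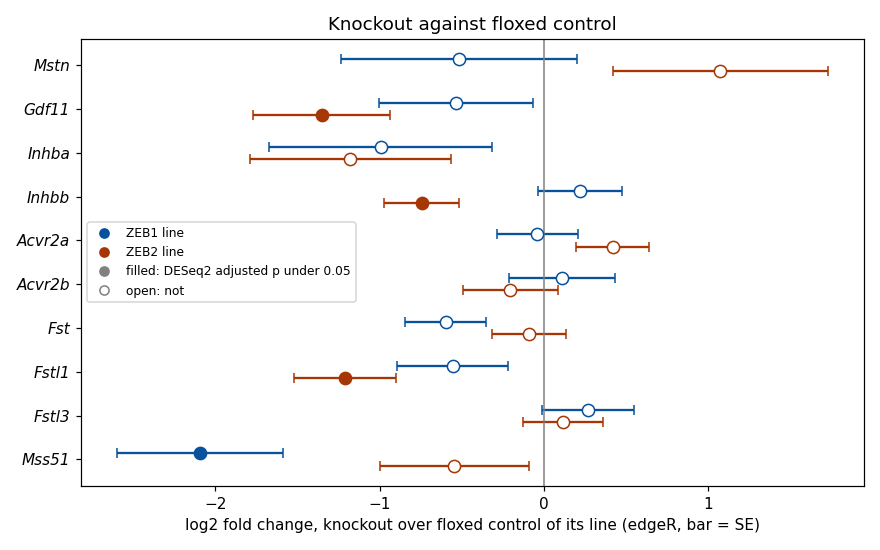
Log2 fold change of each member, knockout over the floxed control of its line, from the edgeR fit, with bars of 1 SE. Filled points passed in DESeq2 and none passed in edgeR, with Mss51 at -2.09 in the ZEB1 line and Fstl1 at -1.21, Gdf11 at -1.35 and Inhbb at -0.74 in the ZEB2 line.

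No member passed a test of the difference between the effects in the 2 lines. The difference of effects passed for 0 of 10 members in edgeR (0% of genes called) and in DESeq2 (0.113%), and without adjustment edgeR gave a p under 0.05 for 2 members and 1427 genes. These were Inhbb, with a difference of 0.96 (SE 0.34, against 5.09% of genes with a positive difference), and Mss51 (against 4.17% with a negative one). For Mstn, whose log2 fold changes had opposite signs, the difference was -1.59 (SE 0.97) (edgeR adjusted p = 0.545). Between the 2 control groups 0 of 10 members passed in edgeR (0.0195% of genes) or DESeq2 (0.104%). There the unadjusted edgeR p was under 0.05 for Fst among the members (lower, as for 1.75% of genes) and for 512 genes, and Fst had every ZEB2 control below every ZEB1 control, as did 7.66% of genes.

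Several members varied together from library to library. Pearson's r was computed on log2 CPM over the 11 libraries for all 45 pairs of members, with permutation p adjusted over the 45. Values of a library share its depth, scaling and tissue make-up. The permutation shuffled all 11 libraries without regard to group, so its p also counts shifts between groups. The r after subtraction of group means has no p of its own. Without adjustment 9 pairs had a p under 0.05, and 3 passed, with no share over pairs of other genes given here. The 3 follow. Mstn and its receptor gene Acvr2a gave r = 0.831 (permutation p = 0.00053, adjusted p = 0.0142) and Spearman's rho = 0.809 (permutation p = 0.00407). After subtraction of group means r was 0.776, without the 2 libraries farthest from the median of Mstn it was 0.754, and over the 7 libraries with Y-linked counts 0.884. Inhba and Gdf11 gave r = 0.859 (permutation p = 0.00079, adjusted p = 0.0142), rho = 0.918 (permutation p = 0.00021), 0.900 within groups, 0.885 without the 2 farthest libraries and 0.768 over the 7. Inhba and Fstl1 gave r = 0.829 (permutation p = 0.00095, adjusted p = 0.0142), rho = 0.827 (permutation p = 0.00263), 0.682 within groups, 0.706 without the 2 farthest and 0.752 over the 7. The number of pairs that passed depended on single libraries. It was 0 without ZEB2 knockout 3, 1 without ZEB2 control 3, 5 without ZEB1 control 3 and 7 without ZEB1 knockout 1.

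Mstn and Fstl1 also followed genes of muscle wasting, in opposite directions. The genes were Foxo1, whose transcription factor switches on atrophy genes, and Trim63 and Fbxo32, which encode the muscle ubiquitin ligases MuRF1 and atrogin-1, and this comparison was chosen after values had been seen. Of 30 pairs of a member and a wasting gene, 7 passed a permutation test adjusted over the 30, again without regard to group. Foxo1, Trim63 and Fbxo32 were each lowest in ZEB1 control 2 and highest in ZEB2 knockout 3. Pairs of a member with each of them are therefore not independent. No share of all genes that follow the same wasting genes as closely is given here, so the 7 have no background beside them. Foxo1 measured 31.6 and 131 CPM in ZEB1 controls, 148, 67.1 and 76.9 CPM in ZEB1 knockouts, 44.7, 77.8 and 38.1 CPM in ZEB2 controls and 141, 167 and 257 CPM in ZEB2 knockouts. Mstn against Foxo1 gave r = 0.796 (permutation p = 0.00397, adjusted p = 0.0298) and rho = 0.800 (permutation p = 0.0045). This r was 0.774 within groups, 0.838 without the 2 libraries farthest from the median of Mstn and 0.810 over the 7 libraries with Y-linked counts. Fstl1 against Foxo1 gave r = -0.877 (permutation p = 0.0004, adjusted p = 0.0060), rho = -0.827 (permutation p = 0.00275), -0.693 within groups, -0.805 without the 2 farthest and -0.775 over the 7. The remaining pairs that passed were Mstn with Trim63 (r = 0.752) and Fbxo32 (0.772), Fstl1 with Trim63 (-0.812) and Fbxo32 (-0.883), and Acvr2a with Foxo1 (0.689, and 0.482 without the 2 farthest libraries). In the 5 floxed controls taken alone, which carry no Cre, Mstn and Foxo1 had r = 0.858 and Fstl1 and Foxo1 r = -0.754, as a description with too few libraries for a test.

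**Figure D4:**
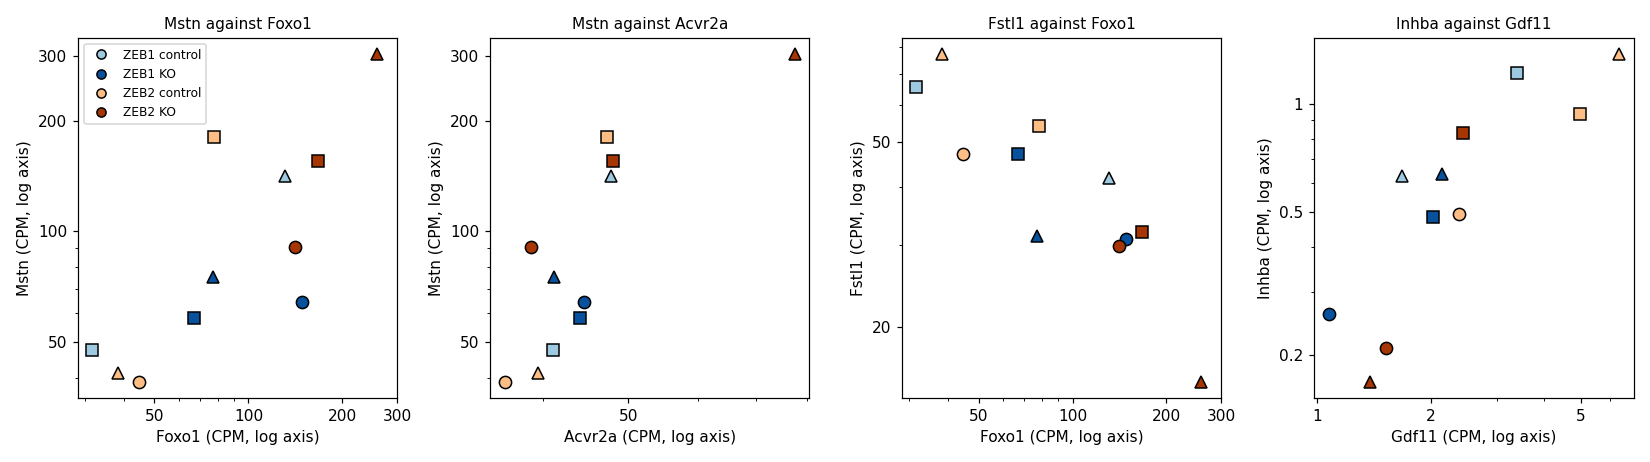
Pairs of genes over the 11 libraries, in TMM-scaled CPM on log axes, with 1 point per library, coloured by group and shaped by replicate number (circle 1, square 2, triangle 3). Mstn climbs with Foxo1 (r = 0.796) and Acvr2a (r = 0.831), Fstl1 falls as Foxo1 climbs (r = -0.877), and Inhba climbs with Gdf11 (r = 0.859), with ZEB2 knockout 3 at an end of the Mstn and Fstl1 panels.

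The genes most like 3 of the members over the 11 libraries were found among 11557 named genes with a mean of at least 1 CPM, by Pearson's r on log2 CPM, as a description. For Mstn they were Enox2 (r = 0.971), Krr1 (0.971) and Adam9 (0.965), each highest in ZEB2 knockout 3, and 83 genes had r above 0.9. For Fst they were Ccl11 (0.907), Mmrn1 (0.902) and Pced1b (0.899), and 2 genes were above 0.9. For Mss51 they were Olfml3 (0.904), Foxo6os (0.873) and Apool (0.871), and 1 gene was above 0.9.

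Other genes of the pathway were taken from lists by role. Beside each count of direction stand 48.7% of all genes tested lower in the ZEB1 line and 53.4% in the ZEB2 line. Among 5 tested ligand genes of 8 listed, all 5 were lower in both lines, and edgeR called 0. The medians were -0.19 in the ZEB1 line and -0.29 in the ZEB2 line, against 0.0070 and -0.047 over all genes. Bmp7 was at 1.85 ± 0.0867 CPM (SD, n = 2) in ZEB1 controls and 0.822 ± 0.246 CPM (n = 3) in ZEB1 knockouts (log2 fold change -1.16, SE 0.50, edgeR adjusted p = 0.9998). Tgfb2, the gene of the ligand TGF-beta 2, measured 10.02, 10.8 and 13.6 CPM in ZEB2 controls, with ZEB2 knockouts at 4.57, 4.53 and 3.41 CPM. All knockouts lay below all controls, with a log2 fold change of -1.46 (SE 0.34, adjusted p = 0.0775 in edgeR and 0.00341 in DESeq2).

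Proteases that cut ligand precursors or release them from their propeptides were split, with 3 of 6 tested genes higher in the ZEB1 line (median -0.13) and 2 of 6 in the ZEB2 line (median -0.17). Furin, the convertase that cleaves TGF-beta family precursors, measured 51.2, 52.2 and 43.3 CPM in ZEB2 controls, with ZEB2 knockouts at 73.2, 90.1 and 137 CPM (log2 fold change 1.03, SE 0.28, adjusted p = 0.0787 in edgeR and 0.0107 in DESeq2). Pcsk6, a related convertase, was lower in the same comparison (-0.79, SE 0.25, adjusted p = 0.0857 in edgeR and 0.0330 in DESeq2), and in the ZEB1 line its groups overlapped (-0.49, SE 0.27).

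Binding proteins and antagonists beyond the follistatin family were lower for 9 of 11 tested genes in the ZEB1 line (median -0.31). In the ZEB2 line 6 of 11 were lower (median -0.037). Of all genes 48.7% and 53.4% were lower in those lines, with medians of 0.0070 and -0.047. Dcn, the gene of decorin, a matrix proteoglycan that can bind TGF-beta and myostatin, averaged 642 ± 31.7 CPM (SD, n = 2) in ZEB1 controls and 484 ± 52.5 CPM (n = 3) in ZEB1 knockouts (log2 fold change -0.41, SE 0.16, edgeR adjusted p = 0.9998). It is also on the fibroblast list. Bgn, the gene of the related proteoglycan biglycan, averaged 80.4 ± 11.6 and 50.2 ± 11.5 CPM (n = 3 each) in the ZEB2 line (-0.68, SE 0.19, adjusted p = 0.0793 in edgeR and 0.0196 in DESeq2). DESeq2 also called Igsf1 lower there (edgeR log2 fold change -1.58, SE 0.46).

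Receptor genes outside the 2 members were lower for 5 of 7 in the ZEB1 line (median -0.081), against 48.7% of all genes. In the ZEB2 line 4 of 7 were lower (median -0.22), against 53.4%. Acvr1b, the type I receptor that myostatin and activin share, measured 53.4 and 143 CPM in ZEB1 controls, with ZEB1 knockouts at 71.99, 66.3 and 64.7 CPM between them. Its ZEB2 controls measured 66.8, 117 and 46.9 CPM and its ZEB2 knockouts 124, 139 and 251 CPM, all above the controls (1.15, SE 0.42, adjusted p = 0.105 in edgeR and 0.0309 in DESeq2). Acvr1, the type I receptor ALK2, was lower in ZEB2 knockouts (-0.73, SE 0.25, adjusted p = 0.0945 in edgeR and 0.0484 in DESeq2).

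Of 11 SMAD signalling genes and inhibitors 6 were higher in the ZEB1 line (median 0.0046) and 5 in the ZEB2 line (median -0.0094), near the medians of all genes. Smad7, an inhibitor induced by the pathway, ran from 4.55 to 7.92 CPM over the 11 libraries, with log2 fold changes of -0.039 (SE 0.22) and -0.011 (SE 0.20). Ski, a repressor of SMAD activity, had the smallest p of its list in the ZEB1 line, at -0.12 (SE 0.15). In the ZEB2 line Tgif1, another SMAD corepressor, was higher (1.04, SE 0.38, adjusted p = 0.106 in edgeR and 0.0380 in DESeq2), and DESeq2 called Smad3 lower (edgeR -1.20, SE 0.46), although its groups overlapped.

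Target and effector genes were higher for 9 of 12 in the ZEB1 line (median 0.17) and 7 of 12 in the ZEB2 line (median 0.53). Of all genes, 48.7% and 53.4% were lower in those lines. None of the 12 was called by edgeR in either. Foxo1 was higher in every ZEB2 knockout than in any ZEB2 control (log2 fold change 1.82, SE 0.52, adjusted p = 0.0824 in edgeR and 0.0057 in DESeq2). DESeq2 called Fbxo32 (1.20, SE 0.46) and Fbxo30 (1.38, SE 0.49, groups overlapping) higher as well. Over all 6 lists, with 5, 6, 11, 7, 11 and 12 genes tested, DESeq2 called 0 genes in the ZEB1 line and 12 in the ZEB2 line. Of all genes it called 0.136% in the ZEB1 line and 19.4% in the ZEB2 line, so the 12 are near the background. Igsf1, Smad3, Fbxo32, Fbxo30 and, for the ZEB2 line, Pcsk6 and Acvr1b were named after their values were seen. The DESeq2 calls on these lists were not recomputed with libraries left out.

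Summed levels of marker genes of other cells and of fibre types did not overlap between groups on 2 lists in the ZEB1 line and on 7 lists in the ZEB2 line. Of single genes, 6.69% lay wholly below and 7.19% wholly above in ZEB1 knockouts, and 22.1% and 21.3% in ZEB2 knockouts. No such share is given here for sums of genes. In bulk muscle fewer cells of a type and less RNA per cell cannot be told apart. The 8 fibroblast markers summed to 2506 and 2528 CPM in ZEB1 controls and to between 1548 and 2166 CPM in ZEB1 knockouts, with 8 of 8 lower (median log2 fold change -0.58). Those of the ZEB2 line summed to 1751 to 2206 CPM in controls and 1649 to 1785 CPM in knockouts, which overlapped, with 7 of 8 lower (median -0.83). Of 7 tendon markers 7 were lower in each line, with sums of 98.7 to 109 CPM in ZEB1 controls, 44.4 to 56.0 CPM in ZEB1 knockouts, 88.7 to 177 CPM in ZEB2 controls and 56.4 to 71.8 CPM in ZEB2 knockouts. The 6 slow and oxidative fibre markers were also all lower in each line, and summed to 3744 to 4912 CPM in ZEB2 controls against 1320 to 2382 CPM in ZEB2 knockouts. In the ZEB1 line their sums overlapped, at 3123 to 4904 CPM in controls and 2155 to 3272 CPM in knockouts. Sums in ZEB2 knockouts also lay wholly below those of ZEB2 controls for 4 satellite cell markers (4.87 to 7.61 against 8.73 to 10.8 CPM, 4 lower), 6 macrophage markers (42.5 to 47.8 against 54.3 to 67.5 CPM, 5 lower), 5 endothelial markers (292 to 332 against 337 to 431 CPM, 5 lower) and 5 smooth muscle and pericyte markers (408 to 427 against 522 to 582 CPM, 5 lower). The 6 fast-fibre markers lay wholly above, at 64528 to 72430 against 51498 to 60919 CPM, with 5 higher. These 5 lists overlapped between the ZEB1 groups, and the adipocyte, Schwann cell and red cell lists overlapped between the groups of both lines. No marker on any list was at 0 in all libraries of a group. Their part in the lower levels of Fstl1, Fst, Gdf11, Inhbb and Mss51 was not tested.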

How the data were processed

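The 11 libraries were made with a stranded mRNA kit that selects poly(A) RNA, per the labels' protocols, and each is a pool of 2 mice. The deposited table gives estimated counts, made by the authors for each gene, as whole numbers and without normalization. This unit was read from the values, since RSEM is among the tools listed. STAR, RSEM, DESeq2 and GRCm38 appear in the submitters' processing notes. No version, setting or strand handling is given there or elsewhere in the labels, so overlapping or antisense genes may share reads. A floxed gene is counted with its exons outside the deleted part.

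Analysis used R 4.3.3 and edgeR 4.0.16. filterByExpr (minimum count 10, minimum total 15) left 15416 genes, TMM scaled the libraries, and 1 robust quasi-likelihood fit over 4 group means gave every contrast. Adjustment was by Benjamini-Hochberg over all genes tested, with a threshold of 0.05. The script was tested on simulated data. The SE was taken as the size of the log2 fold change over the root of F. DESeq2 1.42.0 and limma-voom (limma 3.58.1) stood beside it, as did other scalings and filters, a replicate block, the Y-linked level as covariate and omission of each library. DESeq2 with each library omitted was added after the data were seen. Correlations used log2 CPM with a prior count of 2 and 100000 permutations (Python 3.11.15, numpy 2.4.6). Gene coordinates and exon lengths came from GENCODE M21, whose identifiers matched all 10 members.

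The 10 members and all lists were chosen with earlier results of these data known, so no count over them is independent support. All members are named. Of each pathway list, the gene of smallest unadjusted p in each knockout comparison is named, since edgeR called none, with others where marked; a gene that this rule selects among the targets in the ZEB1 line is not reported here. Genes most alike were sought for Mstn, Fst and Mss51, 3 each. Chi-square per degree of freedom between replicates was 15.5 to 103, so no pair was treated as a duplicate.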

Additional observations from a re-analysis of the deposited data

How the results depend on the processing

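No member passed the edgeR test under any scaling or filter, or in any omission of a library. In the fit of only the ZEB2 groups Fstl1 (adjusted p = 0.0416) and Gdf11 (0.0492) passed. These are 2 of 10 members, beside 2077 of 14673 genes, so this count is near the background. With 2 ZEB1 control libraries, each ZEB1 value rests heavily on both. Genes called numbered 21, 2587, 17 and 16 by DESeq2 (ZEB1, ZEB2, difference of effects, controls), against 0, 0, 0 and 3 by edgeR. Without a low-count filter they numbered 6, 348, 2 and 7. limma-voom called 1 gene in the ZEB1 line, RLE scaling 5 between controls, and the fit of only the ZEB2 groups 2077. Over omissions of 1 library the counts ran from 0 to 5 (ZEB1), 0 to 3 (difference) and 1 to 5 (controls), and the pairs of members that passed from 0 to 7. The median of all genes moved by over 0.1 with upper-quartile scaling (ZEB2 -0.18) and library totals (ZEB2 -0.17). The filter of 1 CPM in 3 libraries dropped Inhba. No pairing by replicate number was used in the main fit. Correlations of same-numbered deviations ran from -0.313 to 0.195 in the ZEB2 line, and were 0.465 and 0.174 for the 2 pairs of the ZEB1 line. The replicate block gave 0 calls in each of 3 comparisons and could not be fitted for the controls, which lie in different lines. Under the block the Fstl3 difference of effects was -0.0056.

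Signs turned for Inhba between controls with limma-voom (-0.017) and library totals (-0.070), and for Fstl3 in the ZEB2 line with upper-quartile scaling (-0.011) and library totals (-0.0045). Over omissions of 1 library, log2 fold changes in the ZEB1 line ran from -1.12 to 0.46 for Mstn, -0.16 to 0.068 for Acvr2a, -0.22 to 0.52 for Acvr2b and -0.96 to 0.044 for Gdf11. In the ZEB2 line they ran from -0.39 to 0.14 for Acvr2b and -0.27 to 0.078 for Fst. The difference of effects ran from -0.042 to 0.70 for Acvr2b, -0.041 to 0.25 for Fstl3 and -0.24 to 1.30 for Inhba. Between controls the range was -1.23 to 0.86 for Mstn, -0.50 to 0.24 for Acvr2b, -0.15 to 0.49 for Fstl1, -0.021 to 0.16 for Fstl3, -0.38 to 0.55 for Inhba and -0.48 to 0.13 for Mss51. The causes were not tested. Counts of 6 to 51 limit Inhba.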

Other observations

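Members other than Mstn also had unequal ranges in the 4 libraries without Y-linked counts and in the 7 with them, although these libraries are not groups of the study and no test was run. Fstl1 ran from 30.9 to 77.1 CPM (median 56.3) in the 4 and from 15.3 to 53.9 CPM (median 32.0) in the 7. Inhbb ran from 1.96 to 2.63 CPM in the 4 and from 1.27 to 2.45 CPM in the 7. The 7 include all ZEB2 knockouts, which had 29.8, 31.96 and 15.3 CPM of Fstl1 and the lowest values of Inhbb. In the ZEB2 line only control 3 lacked Y-linked counts. The split by Y-linked counts and the ZEB2 knockout therefore cannot be fully told apart. With the Y-linked level as a covariate the ZEB2 log2 fold change was -0.98 for Fstl1, -0.66 for Inhbb and -1.18 for Gdf11 (edgeR adjusted p = 0.144, 0.174 and 0.178), and the ZEB1 value of Mss51 was -2.18 (adjusted p = 0.989).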
